A study of Caenorhabditis elegans with 12 samples.

Results

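The comparison described here is atp-2 RNAi against no atp-2 RNAi in worms that were also on dve-1 RNAi, the response to mitochondrial stress that remained on that background. Its members were all genes whose FPKM (a level per length of transcript and per mapped fragment) averaged 1 or more over the 6 groups of the study, which held for 13337 of the 46245 genes listed. For each gene the ratio of (FPKM + 1) with atp-2 RNAi to that without was taken as a log2 value. Calls, higher or lower, required a ratio of 2-fold or more together with 5 FPKM or more in whichever group was higher.

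The libraries were made from mRNA of whole glp-4(bn2) Caenorhabditis elegans, kept at 20 °C on bacteria that express double-stranded RNA and collected at day 1 of adult life. All groups shared this strain, whose mutation affects the germ line in a temperature-sensitive way. Germ line markers were nonetheless present at 20 °C, as described below. The backgrounds were the empty vector L4440, dve-1 RNAi and 1 labelled hda-1 RNAi. On each, worms either received atp-2 RNAi or did not, and it by the labels was seeded 30 h later (the study's methods give another timing for these libraries, and which was used is not settled). There were 12 libraries in 6 groups, and the 2 libraries of a group were combined into 1 deposited value per gene. The dve-1 RNAi groups held 4 of the libraries. No spread between replicates can be taken from such values, so no difference was tested and every call below is a description of size in these libraries. It is not stated whether separate cultures gave the libraries of a group.

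When mitochondrial function is disturbed, C. elegans raises the transcription of nuclear genes for mitochondrial chaperones, proteases and import factors, a program called the mitochondrial unfolded protein response (UPRmt). atp-2 encodes the beta subunit of ATP synthase in mitochondria, and its RNAi is widely used to start this program. dve-1 encodes a homeodomain protein related to mammalian SATB1 that acts in the program in intestinal nuclei, next to the transcription factor ATFS-1. A separate program, the intracellular pathogen response (IPR), covers genes that respond to infection with microsporidia or the Orsay virus, among them many of the pals family and components of a ubiquitin ligase.

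The RNAi targets were compared first. atp-2 (chromosome III, 5228417 to 5230536 of WBcel235, the assembly also called ce11) was at 1090.1 FPKM with dve-1 RNAi and at 423 FPKM with atp-2 RNAi added, so that 38.8% was left. On L4440 it was at 1094 and 598 FPKM, which left 54.6%, and under the hda-1 label at 861 and 554 FPKM. The transcript was thus lower with atp-2 RNAi on every background. It was called lower on dve-1 RNAi only, where the ratio lay past 2-fold, and the difference between backgrounds was not tested. dve-1 was at 25.4 FPKM on L4440 and 19.6 FPKM on L4440 with atp-2 RNAi, and at 11.1 and 14.3 FPKM in the corresponding dve-1 RNAi groups. The dve-1 transcript was therefore lower in the dve-1 RNAi groups but still present. hda-1 was at 24 and 25.1 FPKM in the dve-1 RNAi groups and at 18.8 and 21 FPKM on L4440, whereas the columns labelled hda-1 RNAi held 1207 and 811 FPKM. The signal for the targeted gene was thus higher under the hda-1 label. Whether worm transcript or double-stranded RNA from the bacteria gave this signal cannot be told from these values and was not tested. The columns are named here by that label without a statement on whether hda-1 was reduced.

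Sums of FPKM per group ran from 917209 to 980796, and 16707 to 18262 genes were above 0. From the steps between low values, 5 FPKM on 1 kb of exon was estimated to stand for 87.2 fragments with dve-1 RNAi and 93.8 with atp-2 RNAi added, and for 80.7 to 88.8 in the other groups. Markers of the tissues of a whole worm were present in both groups. Of the 14 kept intestinal markers, 12 body muscle markers, 14 neuronal markers and 24 oocyte and early germ line markers, 0 were under 1 FPKM in either dve-1 RNAi group, and of 6 kept epidermal markers 2 were under 1 FPKM with atp-2 RNAi added. The summed FPKM of the 58 kept sperm markers, which include the major sperm proteins, was 2225 with dve-1 RNAi and 1835 with atp-2 RNAi added, against 580.0 and 715 on L4440 and 47.3 and 48 under the hda-1 label. These are bulk samples, so fewer cells of a type and less RNA per cell cannot be told apart.

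On dve-1 RNAi, atp-2 RNAi came with 133 genes called higher (0.997% of the kept genes) and 208 called lower (1.56%). These shares are the background for every count of called list members on dve-1 RNAi below. Lower genes thus outnumbered higher ones. On L4440 the order was the opposite, with 252 called higher (1.89%) and 87 called lower (0.652%), and under the hda-1 label the counts were 99 higher (0.742%) and 86 lower (0.645%). Most genes differed little, and 12079 of the kept genes (90.6%) lay within 1.5-fold on dve-1 RNAi. The median log2 ratio of all kept genes was 0.02 on dve-1 RNAi and 0.11 on L4440, and list medians below are given after subtraction of that median ("centred").

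Many calls came from very short or non-coding genes, whose FPKM rests on few fragments. Among the called genes, 51 of the higher and 56 of the lower were not protein-coding or had under 300 nt of exon, and 35 and 30 of these were listed at 0 in the lower group. The remaining 82 higher and 152 lower genes are the ones described. The split towards lower genes stood in this set too, as 198 higher and 54 lower genes of the same kind were called on L4440. Of the 82, 62 were between 2- and 3-fold, 8 were 4-fold or more and 3 were 8-fold or more. Of the 152, 98 were between 2- and 3-fold, 32 were 4-fold or more and 9 were 8-fold or more. At the edge of the call, C54F6.6 was just inside at a log2 ratio of 1.007 and the saposin-like gene spp-18 just outside at 0.988 (160.5 and 319 FPKM), while on the lower side F11E6.11 was inside at -1.001 and K08F9.3 outside at -0.987.

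**Figure D1:**
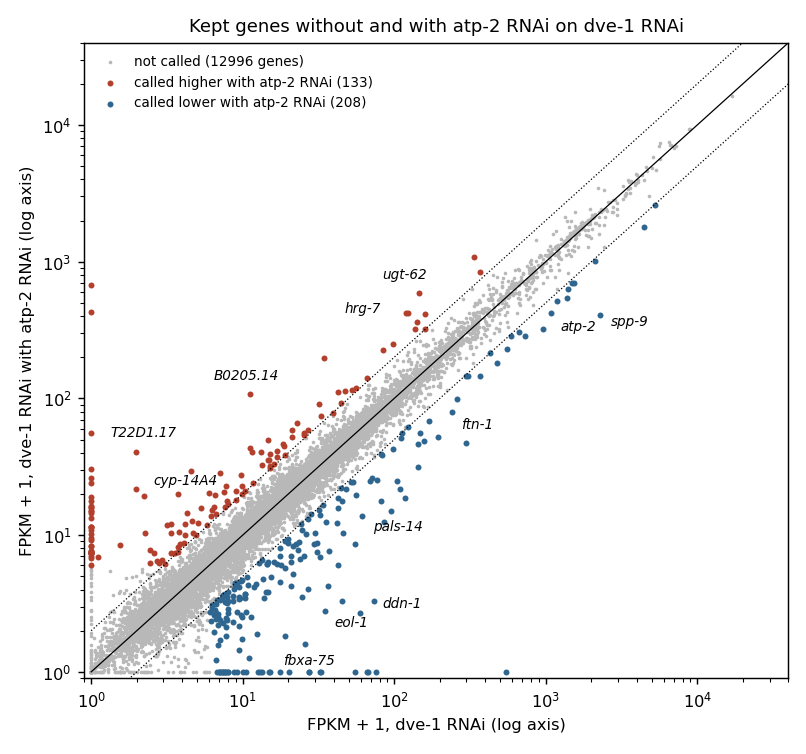
Each point is 1 of the 13337 kept genes, with FPKM + 1 under dve-1 RNAi on the x axis and under dve-1 RNAi with atp-2 RNAi on the y axis (both log axes, 1 pooled value per group). The solid line marks equal levels and the dotted lines 2-fold. The 133 genes called higher are red and the 208 called lower are blue, and points on the axes are genes listed at 0 in 1 of the groups.

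Of the long protein-coding genes called higher, T22D1.17 had the largest ratio and is described below with genes not called on L4440. The genes next in size, B0205.14, cyp-14A4 and B0205.13, were also called higher on L4440. B0205.14 (chromosome I, 10726088 to 10727386) was at 10.2 FPKM with dve-1 RNAi and 106 with atp-2 RNAi added, at 2.84 and 271 on L4440, and at 18.6 and 50.2 under the hda-1 label. Its annotation overlaps srz-85, and without stated strandedness the reads of overlapping genes cannot be told apart. B0205.13, its neighbour on the chromosome, was at 33.6 and 197 FPKM on dve-1 RNAi, 57.6 and 578 on L4440, and 82.3 and 164 under the hda-1 label. cyp-14A4, which encodes a cytochrome P450, was at 1.23 and 18.3 FPKM on dve-1 RNAi, 0.739 and 62.5 on L4440, and 4.3 and 22.8 under the hda-1 label. For each of these 3 genes the value with atp-2 RNAi was above the value without it on all 3 backgrounds, and the level reached was lower on dve-1 RNAi than on L4440. The ratio of FPKM on dve-1 RNAi was 14.9-fold for cyp-14A4, with a 95% counting interval of 10.5 to 22 (exact, from the estimated fragments, and for counting error only).

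The most abundant gene of this kind was ugt-62, which encodes a UDP-glucuronosyltransferase of the family that conjugates lipophilic compounds. It was at 144 FPKM with dve-1 RNAi and 587 with atp-2 RNAi added, at 359 and 1676 on L4440, and at 193 and 573 under the hda-1 label. The log2 ratio of 2.02 on dve-1 RNAi stood beside 2.22 on L4440, so that both the starting and the final level were lower on dve-1 RNAi while the ratio was similar. nas-3, an astacin-type metalloprotease gene, was at 2.72 and 19.1 FPKM on dve-1 RNAi, 0.952 and 5.16 on L4440, and 2.14 and 6.14 under the hda-1 label. Here the level with atp-2 RNAi was highest on dve-1 RNAi. The large transcript R193.2 was at 10.6 and 39.4 FPKM on dve-1 RNAi against 18.8 and 45.6 on L4440, and F09C8.1 at 6.1 and 27.5 against 16.3 and 39.8.

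Other genes among the 15 with the largest ratios were not called on L4440. T22D1.17, a gene with 305 nt of exon that overlaps T22D1.8, was at 0.965 and 39.7 FPKM on dve-1 RNAi, 0.642 and 1.39 on L4440, and 2.07 and 1.9 under the hda-1 label. gst-38, a glutathione S-transferase gene, was at 2.16 and 10.8 FPKM on dve-1 RNAi but between 63.5 and 66.5 in all 4 other groups. The higher value on dve-1 RNAi was therefore still far below that of every other background. clec-45, a C-type lectin gene, was at 10.2 and 42.5 FPKM on dve-1 RNAi, at 0.335 and 0 on L4440, and at 65.7 and 59 under the hda-1 label. Y41C4A.11 was at 123 and 421 FPKM on dve-1 RNAi against 12.6 and 16.2 on L4440.

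**Figure D2:**
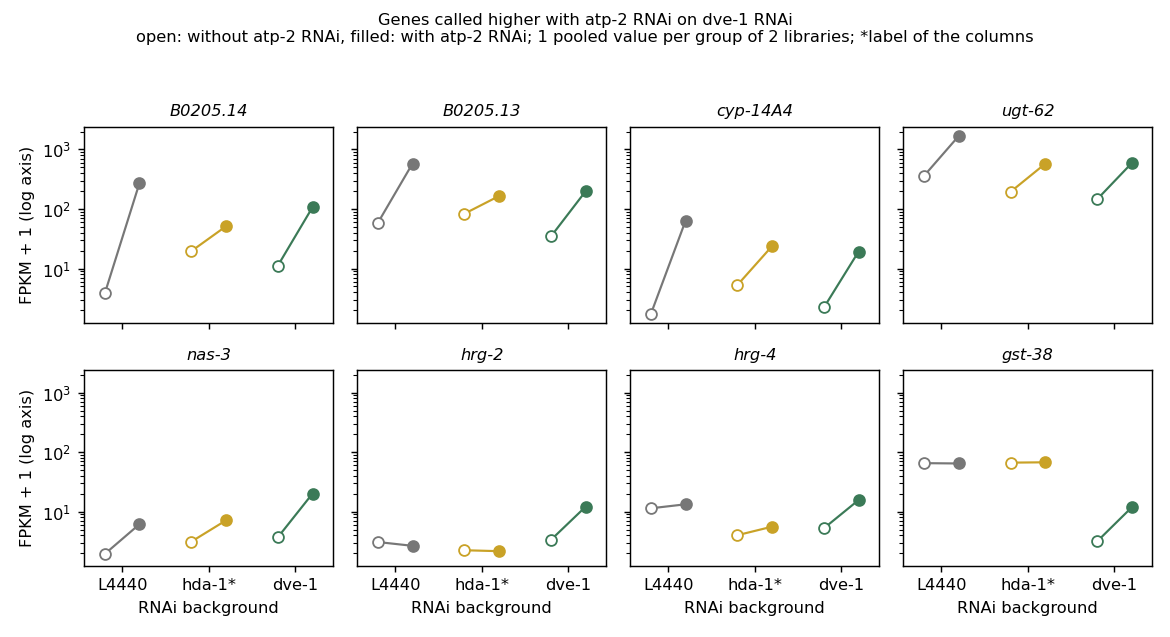
FPKM + 1 (log axis) of 8 genes called higher on dve-1 RNAi, in the 6 groups, with open circles for groups without atp-2 RNAi and filled circles for groups with it, joined within a background. The upper row shows genes that were also higher on L4440, such as ugt-62 at 359 and 1676 FPKM, and hrg-2, hrg-4 and gst-38 in the lower row had similar values in both L4440 groups.

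Some of the higher genes act in heme and iron handling, and they are described with others of that role from a list assembled after their values were seen. C. elegans cannot make heme and takes it up from bacteria, and the hrg genes were named for their response to low heme. The intestinal heme importer gene hrg-4 was at 4.28 FPKM with dve-1 RNAi and 14.7 with atp-2 RNAi added, at 10.4 and 12.3 on L4440, and at 3.03 and 4.6 under the hda-1 label. hrg-1, which encodes a second heme transporter, was at 55.1 and 118 FPKM on dve-1 RNAi and at 71.2 and 73.7 on L4440. hrg-2, a gene of the epidermis with a role in heme use, was at 2.36 and 11.1 FPKM on dve-1 RNAi and at 2.09 and 1.67 on L4440. All 3 were thus above 2-fold on dve-1 RNAi and near equal on L4440. hrg-7 (asp-10 in the deposited table), which encodes a secreted aspartic protease homologue that signals heme status between intestine and neurons, differed from them in being higher on L4440 too. It was at 118 and 419 FPKM on dve-1 RNAi, 176 and 383 on L4440, and 86.1 and 96.2 under the hda-1 label.

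The iron storage gene ftn-1, a ferritin, was on the lower side. It was at 241 FPKM with dve-1 RNAi and 78.2 with atp-2 RNAi added, at 118 and 133 on L4440, and at 339.5 and 165 under the hda-1 label. The lowest of the 6 values was thus that of dve-1 RNAi with atp-2 RNAi, and the ratio was 3.08-fold with a counting interval of 2.85 to 3.33. The second ferritin gene, ftn-2, was at 361 and 329.9 FPKM and not called. smf-3, which encodes a divalent metal transporter of the gut, was at 1.83 and 4.38 FPKM on dve-1 RNAi and at 9.56 and 4.44 on L4440, under the minimum level for a call on dve-1 RNAi. Of the 16 genes listed 14 were kept, and 4 were called higher and 1 lower on dve-1 RNAi. This count restates how the list was put together and supports nothing. The centred median of the intestinal markers was 0.25 on dve-1 RNAi, where pept-1 (a peptide transporter) was called higher and mtl-2 (a metallothionein) lower, and -0.01 on L4440. Their summed FPKM was 8291 and 9452 on dve-1 RNAi and 8723 and 8097 on L4440, and the part of intestinal RNA in these values was not tested.

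Detoxification and digestive genes held calls in both directions. Over all kept genes 0.997% were called higher and 1.56% lower. Of the 42 kept glutathione S-transferases, 4 were called higher and 0 lower, and besides gst-38 these were gst-4 (158 and 319.8 FPKM), gst-13 (46.5 and 112) and gsto-1 (7.99 and 17.2). gst-4 and gsto-1 lay at the edge of the call, with log2 ratios of 1.01 and 1.02. gst-4 is a common reporter gene of the oxidative stress factor SKN-1. The cytochrome P450 genes split, with 3 of 64 called higher and 5 lower. cyp-14A1 was at 2.79 and 9.61 FPKM on dve-1 RNAi, whereas its relative cyp-14A3 was at 31.4 and 5.94, and cyp-35A2 at 54.9 and 18.7. The same 2 directions held for these genes on L4440, where cyp-14A1 was at 5.59 and 29, cyp-14A3 at 20.5 and 5.47 and cyp-35A2 at 119.6 and 50.3. The exception among the called members was cyp-13B1, lower on dve-1 RNAi (41.5 and 14.7) but at 3.99 and 5.59 on L4440. The UDP-glucuronosyltransferases likewise had 3 called higher and 3 lower of 56. Among the 20 kept cathepsin and aspartyl protease genes, cpr-5 (137 and 323 FPKM), cpr-8 (30.9 and 90.6) and asp-8 (14.2 and 38) were called higher with hrg-7, while the cathepsin B-like genes cpr-1 (2123 and 1008) and cpr-4 (431 and 213) were called lower.

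CUB-domain and dod genes, a set tied to intestinal immune responses, had 4 of 20 called higher and 1 lower. dod-21 was at 83.6 and 225 FPKM on dve-1 RNAi and at 6.73 and 47.4 on L4440. cld-1 (C32H11.9 in the table) was at 139.7 and 359.9 FPKM on dve-1 RNAi and at 5.29 and 42.6 on L4440. Both were high on dve-1 RNAi before atp-2 RNAi was added, and higher still with it. irg-8 (ZK6.11) went another way, at 158 and 415 FPKM on dve-1 RNAi and at 622 and 464 on L4440. Glucocerebrosidase and cathepsin A-like genes, a list also assembled after their values were seen, had 3 of 10 called higher, gba-4 (51.7 and 115 FPKM), gba-1 (18.1 and 37.5) and ctsa-4.1 (4.09 and 11.3). Its member gba-2, which overlaps gba-1, was called lower at 7.57 and 2.31 FPKM. These counts restate how the list was put together and support nothing.

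The UPRmt genes themselves were not called on dve-1 RNAi. Of the 22 genes of that list, all of them kept, 0 passed 2-fold in either direction on dve-1 RNAi, against 8 called higher on L4440. Over all kept genes 0.997% were called higher and 1.56% lower on dve-1 RNAi, and 1.89% higher on L4440. At the shares on dve-1 RNAi a list of 22 genes would hold few calls, so the count of 0 says little by itself. The list lay above the other genes all the same, with 18 of 22 members above the median of kept genes and a centred median of 0.36 on dve-1 RNAi, 0.69 on L4440 and 0.24 under the hda-1 label. hsp-6, the mitochondrial HSP70, was at 106 FPKM with dve-1 RNAi and 158 with atp-2 RNAi added, at 107 and 242 on L4440, and at 116 and 142 under the hda-1 label. Its level without atp-2 RNAi was nearly the same on the 3 backgrounds, and the ratio on dve-1 RNAi was 1.5-fold with a counting interval of 1.44 to 1.55. hsp-60, the mitochondrial chaperonin, had the largest ratio of the list on dve-1 RNAi, at 19.1 and 35 FPKM, beside 17.9 and 49.3 on L4440 and 28.5 and 47 under the hda-1 label. Y22D7AL.10, a gene next to hsp-60 whose product is related to mitochondrial HSP10, was at 70.3 and 109 FPKM on dve-1 RNAi and 77.1 and 171 on L4440.

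The other members followed by function. Among mitochondrial proteases, spg-7 was at 14.6 and 22.9 FPKM on dve-1 RNAi and 12.2 and 30.5 on L4440, and lonp-1 (C34B2.6) at 15.7 and 22.3 against 13.8 and 24.3. Among import factors, timm-23 was at 81.3 and 101 FPKM against 82.1 and 165, tomm-40 at 30.3 and 40 against 25 and 49.2, and tin-44 at 12.4 and 18.3 against 12.3 and 26.3. In each case the level without atp-2 RNAi was close on both backgrounds and the level with it was lower on dve-1 RNAi. The 4 members below the median on dve-1 RNAi were gpd-2 (a glyceraldehyde-3-phosphate dehydrogenase) and 3 genes of UPRmt signalling, the peptide exporter gene haf-1 at 2.73 and 1.57 FPKM, ubl-5 at 55.4 and 44.1, and atfs-1 at 54.2 and 49.2. Taken gene by gene, the centred ratio was smaller on dve-1 RNAi than on L4440 for 21 of 22 members, the exception being the protease subunit gene clpp-1, and the median difference was -0.34 on the log2 scale. Counts past 1.5-fold were 3 of 22 on dve-1 RNAi, 14 on L4440 and 2 under the hda-1 label. These differences between backgrounds were not tested, since each rests on 1 value per group.

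**Figure D3:**
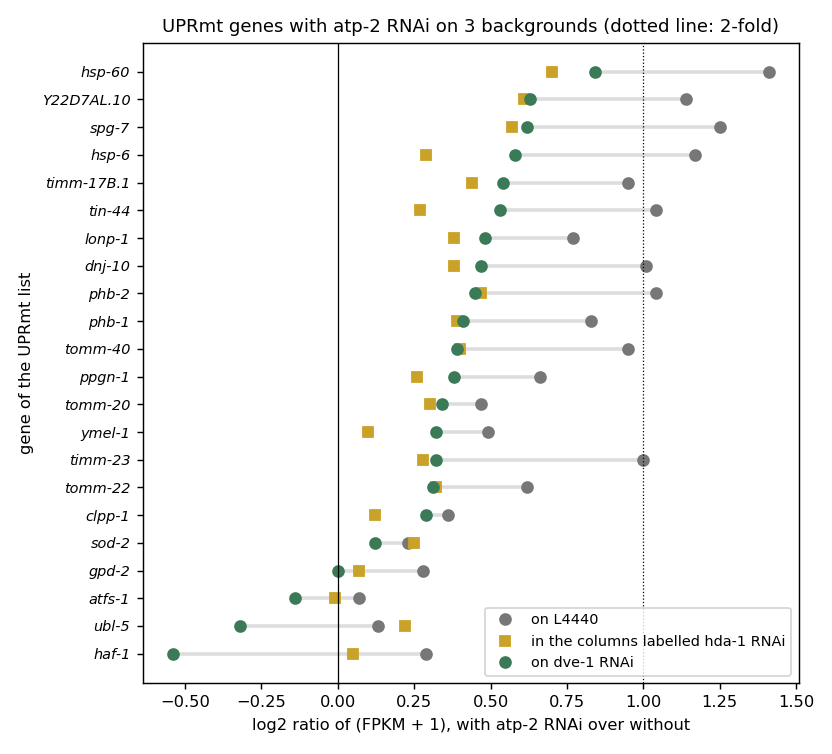
Log2 ratio of (FPKM + 1) with atp-2 RNAi over without for the 22 genes of the UPRmt list, on dve-1 RNAi (green circles), on L4440 (grey circles) and under the hda-1 label (yellow squares). The dotted line is 2-fold. All green points lie left of it, from -0.54 for haf-1 to 0.84 for hsp-60, while 8 grey points lie on it or to its right.

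A list of 12 genes that the study followed by quantitative PCR under atp-2 RNAi had 0 called on dve-1 RNAi and 7 called higher on L4440, with centred medians of 0.35 and 0.93. With 0.997% and 1.56% of all kept genes called on dve-1 RNAi, a list of 12 would hold few calls there. These genes are no independent evidence of direction, since the study had these libraries in hand, and the study measured further worm genes in this way. Among 6 genes followed after infection, mul-1 (a mucin-like gene) was called higher on dve-1 RNAi at 2.73 and 6.52 FPKM, beside 8.27 and 10.9 on L4440. The cadmium-responsive gene cdr-4 was at 157 and 951 FPKM on L4440 but at 467 and 624 on dve-1 RNAi, so that its level without atp-2 RNAi was already higher there. cyp-33C8 was at 65.3 and 372 FPKM on L4440 and at 66.7 and 125 on dve-1 RNAi, from the same starting level. hmgs-1, the HMG-CoA synthase of the mevalonate pathway, was at 16.4 and 35.4 on L4440 and at 16.3 and 21.7 on dve-1 RNAi.

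Mitochondrial ribosomal protein genes and aminoacyl-tRNA synthetase genes lay slightly above the other genes. Of the 69 mitochondrial ribosomal protein genes 0 were called on dve-1 RNAi, but 65 lay above the median of kept genes and their centred median was 0.24, beside 0.40 on L4440 and 0.34 under the hda-1 label. The 33 aminoacyl-tRNA synthetase genes had 27 above the median and a centred median of 0.20. Of the 68 nuclear genes of the respiratory chain and ATP synthase, 0 were called and the centred median was 0.09. The 12 genes of the mitochondrial DNA had a centred median of -0.15 on dve-1 RNAi and 0.16 on L4440. Lists of cytosolic heat shock genes (0 of 16), endoplasmic reticulum stress genes (0 of 24), antioxidant enzymes (0 of 28) and proteasome subunits (0 of 32) held no called gene on dve-1 RNAi, in either direction. With 0.997% and 1.56% of all kept genes called, lists of this size would hold few calls at the overall share, so these counts say nothing particular about them.

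The lower genes had another character. Their median level over the 152 genes was 18.4 FPKM with dve-1 RNAi and 5.14 with atp-2 RNAi added, but 2.33 and 2.52 on L4440 and 9.78 and 8.04 under the hda-1 label. Of the 152, 88 (57.9%) were under 5 FPKM in both L4440 groups, whereas of all 8694 kept long protein-coding genes at 5 FPKM or more with dve-1 RNAi 754 (8.67%) were. Of the 82 higher genes 10 (12.2%) were under 5 FPKM in both L4440 groups, close to the 10.1% of all kept long protein-coding genes at 5 FPKM or more in either dve-1 RNAi group. The lower set thus held many genes that were low on L4440 and high with dve-1 RNAi without atp-2 RNAi, which is the control group of this comparison. The lower call asks for a high value in that control group, so the excess of 57.9% over 8.67% follows in part from the choice. A ratio of dve-1 RNAi to L4440 shares that group with this comparison, so the levels are set side by side here and no overlap is given.

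IPR genes held 4 of the 6 largest lower ratios among the long protein-coding genes. The largest was that of Y105C5A.9, a gene with 405 nt of exon on no list, at 31.8 FPKM with dve-1 RNAi and listed at 0 with atp-2 RNAi added, listed at 0 in both L4440 groups, and at 32.8 and 16.2 under the hda-1 label. F42C5.3, also on no list, was at 43.9 and 2.3 FPKM on dve-1 RNAi, 1.06 and 1.5 on L4440, and 19.8 and 10.5 under the hda-1 label. ddn-1 (B0507.10 in the table, chromosome V, 8758820 to 8760516) was at 72.3 FPKM with dve-1 RNAi and 2.29 with atp-2 RNAi added, at 0.911 and 0.981 on L4440, and at 57 and 36.9 under the hda-1 label. Its neighbour B0507.8 was at 58.4 and 1.71, 0.361 and 0.277, and 41.7 and 25.1 FPKM in the same order of groups. eol-1 (chromosome V, 13979462 to 13980907), which encodes a relative of the decapping exonuclease DXO, was at 34 and 1.78, 0.855 and 0.871, and 86.2 and 60.9 FPKM. Each of these genes was nearly silent on L4440 and on dve-1 RNAi with atp-2 RNAi, and high in the 3 remaining groups. The ratio without atp-2 RNAi to with it on dve-1 RNAi was 31.5-fold for ddn-1 (counting interval 24.3 to 41) and 19.1-fold for eol-1 (14 to 27.2). The F-box gene fbxa-75 was at 24.8 and 0.606 FPKM on dve-1 RNAi, listed at 0 in both L4440 groups, and at 2.54 and 1.69 under the hda-1 label.

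Of the 21 kept IPR genes outside the pals family, 5 were called lower and 0 higher, and 20 had a lower FPKM with atp-2 RNAi than without on dve-1 RNAi. Of the 27 listed, 6 were not kept, and the centred median of those kept was -0.91. On L4440, 11 of the 21 were under 1 FPKM without atp-2 RNAi, and no gene under 5 FPKM there could be called lower. Some of the 21 were kept only through groups in which they were high. Their median on L4440 is therefore not set against that on dve-1 RNAi. The called members were ddn-1, B0507.8, fbxa-75, eol-1 and sdz-6. Parts of the IPR ubiquitin ligase had smaller ratios, with the cullin cul-6 at 6.72 and 6.67 FPKM and its adaptors skr-3 at 232 and 194, skr-4 at 159 and 99.1 and skr-5 at 45.7 and 37.1. The bZIP factor zip-1, which acts in the response, was at 34.2 and 23.8 FPKM, and the viral RNA sensor drh-1 at 10.1 and 9.08. These components kept most of their level where the genes above did not.

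The pals family (named for a protein signature shared with the human gene ALS2CR12) had 31 kept members of 38 listed, of which 7 were called lower and 0 higher on dve-1 RNAi, with a centred median of -0.84. On L4440, 2 were called higher, but 18 of the 31 were under 1 FPKM there without atp-2 RNAi. No gene under 5 FPKM in that group could be called lower, so the medians of the backgrounds are not compared. pals-33 (W08A12.4) was at 17.9 and 0.838 FPKM on dve-1 RNAi, 0.745 and 0.444 on L4440, and 13.4 and 8.24 under the hda-1 label. pals-5 (C17H1.6), a standard reporter of the IPR, was at 8.5 and 0.456 FPKM on dve-1 RNAi and at 0 and 0.0514 on L4440. Both were near 0 on L4440. pals-26 (B0284.1) was at 36 and 6.6 FPKM, pals-39 (dct-3) at 11.4 and 0.89, and pals-38 (C54D10.8) at 5.89 and 0.569 on dve-1 RNAi. pals-14 (F22G12.1) differed in being higher with atp-2 RNAi on L4440, from 0.252 to 2.54 FPKM, under the minimum level for a call, while on dve-1 RNAi it was at 60.7 and 12.7. The regulators of the program were not called. pals-22, a repressor, was at 5.98 and 4.29 FPKM on dve-1 RNAi, and pals-25, its antagonist, at 4.29 and 3.24. Several pals genes are close copies of each other, and how reads were shared between such copies could move single values.

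**Figure D4:**
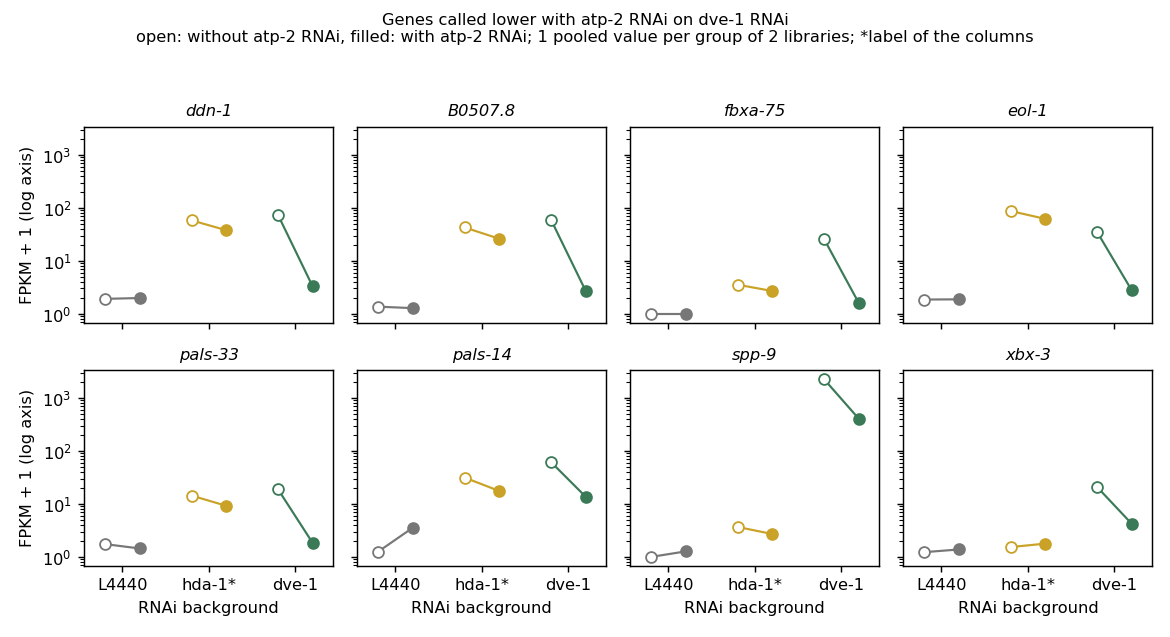
FPKM + 1 (log axis) of 8 genes called lower on dve-1 RNAi, in the 6 groups, with open circles for groups without atp-2 RNAi and filled circles for groups with it. ddn-1, B0507.8, fbxa-75, eol-1 and pals-33 lay under 1 FPKM in both L4440 groups, and spp-9 was at 2266 and 408 FPKM on dve-1 RNAi but under 3 FPKM in the 4 other groups.

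By the correlation of log2(FPKM + 1) over the 6 groups, a description with n = 6 points from shared backgrounds, the genes most like eol-1 were ins-26 (r = 0.9983), pals-27 (0.9978), nlp-21 (0.9972), pals-30 (0.9971) and lido-11 (0.9961). ins-26 encodes an insulin-like peptide and nlp-21 a neuropeptide. Their levels spanned a far smaller range, for ins-26 between 4.46 and 11.2 FPKM, with 9.04 and 4.96 on dve-1 RNAi.

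Saposin-like proteins, of which some permeabilise bacterial membranes, held some of the most abundant lower genes on dve-1 RNAi without atp-2 RNAi. spp-9 was at 2266 FPKM with dve-1 RNAi and 408 with atp-2 RNAi added, at 0 and 0.27 on L4440, and at 2.68 and 1.71 under the hda-1 label. spp-12 was at 959.9 and 321 FPKM on dve-1 RNAi, 0.672 and 0.604 on L4440, and 60.5 and 48.8 under the hda-1 label. Both stayed far above every L4440 value with atp-2 RNAi. Of 25 kept saposin-like genes 4 were called lower and 0 higher, the others being spp-21 (157 and 47.5) and spp-29 (8.42 and 2.41), and the centred median was -0.01. The list as a whole therefore did not lie below the other genes. Other immune genes called lower and far below these levels on L4440 were the C-type lectins clec-60 (103 and 24 FPKM) and clec-61 (76.1 and 24.2). Both lectins were under 0.2 FPKM on L4440. The lysozyme gene lys-4 was at 669 and 304 FPKM on dve-1 RNAi and 9.42 and 12.1 on L4440. Under the hda-1 label all were also above their L4440 levels, clec-60 at 34.5 and 23.2 FPKM, clec-61 at 37.7 and 22 and lys-4 at 165 and 169.8. Of the 98 kept C-type lectins, 4 were called higher and 6 lower.

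Genes of the sensory cilium were also among the lower genes, and are described from a list that was likewise assembled after the values were seen. Cilia in C. elegans occur only on sensory neurons, and they are built by intraflagellar transport. Of 61 genes listed 33 were kept, 18 of them under 1 FPKM on L4440 without atp-2 RNAi, and 9 were called lower and 0 higher on dve-1 RNAi. Some of these passed the filter only through the dve-1 RNAi group, so that the count and the order of groups over the list follow in part from how members were chosen and support nothing. xbx-3, whose promoter carries the X-box motif of ciliary genes, was at 19.9 and 3.23 FPKM on dve-1 RNAi, 0.228 and 0.381 on L4440, and 0.534 and 0.779 under the hda-1 label. dyf-19, a gene of the ciliary base, was at 19.8 and 5.31 FPKM on dve-1 RNAi and under 0.2 on L4440. bbs-5, a subunit of the BBSome, was at 14.4 and 3.91 on dve-1 RNAi and 0.807 and 0.901 on L4440. Their values were highest with dve-1 RNAi alone, lower with atp-2 RNAi added and lowest on L4440. The other called members were ift-20, wdr-31 (T05A8.5), ifta-2, dyf-2, tba-5 and arl-13. Of the 9, 6 overlap another protein-coding gene, namely bbs-5 (with inpp-4B), ift-20 (spe-5), ifta-2 (T28F3.5), dyf-2 (sid-2), tba-5 (rsd-6) and arl-13 (rla-1). The strands of these pairs were not compared, and without stated strandedness their reads cannot be told apart. daf-19, the factor that binds the X-box, was at 2.99 and 2.16 FPKM and not called. Of the 33 kept members 30 lay below the median of kept genes and 3 above it. Among the latter, klp-11 was at 12.1 and 24.9 FPKM, just short of a call at a log2 ratio of 0.98. The 14 neuronal markers had a centred median of -0.20 on dve-1 RNAi and a summed FPKM of 771 and 656, against 609 and 594 on L4440, with log2 ratios between -0.35 and 0.28. None of them was called, and the part of neuronal RNA in these values was not tested.

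Neuropeptide and insulin genes lay below the other genes. Of 120 kept, 6 were called lower and 0 higher, 102 lay below the median of kept genes, and the centred median was -0.36 on dve-1 RNAi, -0.27 on L4440 and -0.12 under the hda-1 label. nlp-1, which encodes a buccalin-related peptide, was at 96.9 and 41.6 FPKM on dve-1 RNAi and at 8.9 and 9.55 on L4440. The insulin gene ins-6 was at 7.9 and 3.44 FPKM on dve-1 RNAi and at 5.81 and 5.82 on L4440. The other called members were nlp-70, nlp-46, ins-10 and nlp-66. All 6 had a higher value with dve-1 RNAi alone than on L4440 without atp-2 RNAi. The call itself asks for a high value with dve-1 RNAi alone, so this follows in part from the choice and supports nothing. Over the 120 kept members, the centred median log2 ratio of dve-1 RNAi to L4440, both without atp-2 RNAi, was 0.07.

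Cuticle collagens gave 7 called lower and 1 higher of 107 kept, with a centred median of -0.06, close to that of all genes. col-130, which overlaps ugt-65, was at 116 and 17.6 FPKM on dve-1 RNAi, under 1 on L4440, and at 3.88 and 3.39 under the hda-1 label. col-107 was at 479.5 and 179.6 FPKM on dve-1 RNAi, 2.84 and 4.03 on L4440, and 83.9 and 50.3 under the hda-1 label. Both dve-1 RNAi groups were thus above the 4 others for these genes. col-36, which overlaps dyf-13, differed in being highest under the hda-1 label, at 50.7 and 25.3 FPKM, beside 30 and 6.55 on dve-1 RNAi. The body shape collagen dpy-5 was at 70.4 and 25.3 FPKM on dve-1 RNAi and at 0.438 and 1.58 on L4440. The exception in direction was col-149, at 13.8 and 34.7 FPKM on dve-1 RNAi and 5.64 and 16.9 on L4440.

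A smaller group of lower genes was lower with atp-2 RNAi on L4440 as well. dhs-26, a short-chain dehydrogenase gene, was at 193 and 51.3 FPKM on dve-1 RNAi, 425 and 103 on L4440, and 21.7 and 10.6 under the hda-1 label. mtl-2, a metallothionein gene of the intestine, was at 297 and 146 FPKM on dve-1 RNAi, 954 and 473 on L4440, and 2585 and 1338 under the hda-1 label. For these the proportional loss was alike on dve-1 RNAi and L4440 from different starting levels. The second metallothionein gene, mtl-1, was at 1529 and 703 FPKM on dve-1 RNAi, 1296 and 1078 on L4440, and 354 and 95.9 under the hda-1 label. Its log2 ratio was -1.12 on dve-1 RNAi and -0.27 on L4440.

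Across all kept genes the response on dve-1 RNAi overlapped in part with that on L4440, with which it shares no group. Of the 133 higher genes 43 were also called higher on L4440, which is 32.3% of the 133 and 17.1% of the 252. Of the 208 lower genes 20 were also called lower there, 9.62% of the 208 and 23% of the 87. Of all kept genes, 1.89% were called higher and 0.652% lower on L4440, and 0.997% and 1.56% on dve-1 RNAi. Among long protein-coding genes 29 higher genes were shared (35.4% of 82 and 14.6% of 198), among them stl-1, the stomatin-like gene of mitochondria, at 20.2 and 51.4 FPKM on dve-1 RNAi and 18 and 131 on L4440. The 252 genes called higher on L4440 had a median log2 ratio of 1.45 there, which the choice of genes fixes, and 0.39 on dve-1 RNAi, where 180 of them lay above the median of kept genes. The 133 genes called higher on dve-1 RNAi had medians of 1.52 and 0.36, and the 208 lower genes -1.54 and 0.0. Over the 13337 genes Pearson's r between the log2 ratios on the 2 backgrounds was 0.21 and Spearman's rho 0.34, across genes, which are not replicates. With the columns labelled hda-1 RNAi, 17 higher and 15 lower genes were shared (12.8% of the 133 and 7.21% of the 208), with r of 0.14 and rho of 0.36. Under that label 0.742% of all kept genes were called higher and 0.645% lower.

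The genes called higher on L4440 whose ratio was smallest on dve-1 RNAi were led by genes with a high value under dve-1 RNAi alone. D1086.9 was at 0.355 and 16.5 FPKM on L4440 and at 143 and 30.4 on dve-1 RNAi, and its neighbour H39E23.3 at 131 and 419.8 against 1392 and 822. pals-6 (C17H1.7) was at 2.3 and 12.4 FPKM on L4440 and at 80.2 and 38.2 on dve-1 RNAi. The bZIP factor gene zip-10 was at 20.7 and 73.4 FPKM on L4440 and at 68.9 and 46.4 on dve-1 RNAi. In each of these the value on dve-1 RNAi without atp-2 RNAi was above that on L4440, and for D1086.9, H39E23.3 and pals-6 so was the value with it. The value on dve-1 RNAi without atp-2 RNAi is the denominator of the ratio used for ranking, so its height follows in part from the choice.

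**Figure D5:**
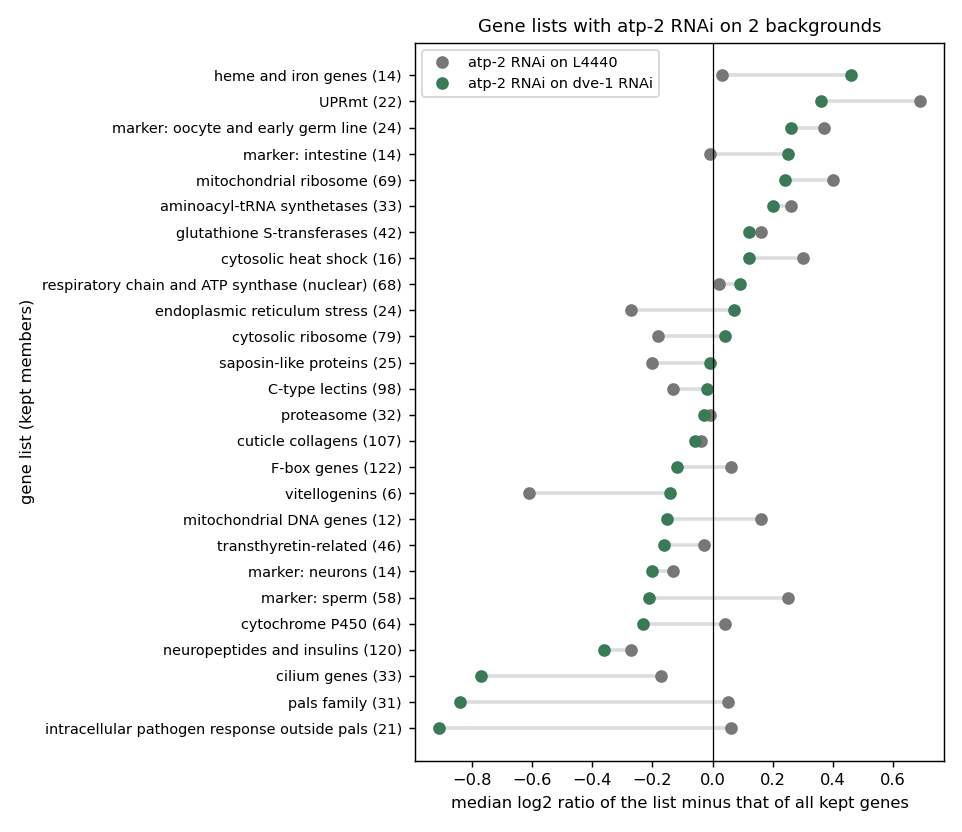
Median log2 ratio of each gene list minus the median of all kept genes, with atp-2 RNAi on dve-1 RNAi (green) and on L4440 (grey); the number of kept members is in brackets. The IPR genes (-0.91), the pals family (-0.84) and the cilium genes (-0.77) lay lowest on dve-1 RNAi. On L4440 without atp-2 RNAi, 18 pals genes, 11 IPR genes and 18 cilium genes were under 1 FPKM. No gene under 5 FPKM there could be called lower. The UPRmt list lay at 0.36 and 0.69.

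Called genes were unevenly placed on the chromosomes. Chromosome V held 28 of the 82 higher genes (34.1%) and 54 of the 152 lower genes (35.5%), against 19.6% of the kept long protein-coding genes, and chromosome X held 18.3% and 11.8% against 14.3%. Chromosome V carries many lectin, cytochrome P450 and chemoreceptor genes, and whether these gave the uneven placement was not tested. Sperm genes, which were higher on dve-1 RNAi than on L4440, added little to the calls. Of the 58 kept, 1 was called higher and 2 lower (msp-31, at 111 and 54.8 FPKM, and nspd-9), the centred median was -0.21, and without the sperm list and the core histones the counts were 132 higher and 206 lower. The 6 vitellogenin genes, which encode yolk proteins of the intestine, summed to 23792 FPKM with dve-1 RNAi and 21852 with atp-2 RNAi added, and to 38419 and 31396 on L4440, and 0 of them were called on dve-1 RNAi.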

How the data were processed

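Reads of 12 mRNA libraries were, per the study's methods and the labels, aligned by the authors to ce11 with TopHat2 (version 2.1.1), uniquely mapping reads were kept, and gene levels were obtained with Cufflinks. The deposited values are FPKM, 1 per gene and group, with both libraries of a group combined, and the authors' scaling between groups is not stated. No count, confidence bound or value per library was used, since the table holds group values only.

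Genes were matched by identifier to Ensembl release 115 (45990 of 46245), and symbols follow that release. Genes with a mean FPKM of 1 or more over the 6 columns were kept (13337, of which 12547 were protein-coding with 300 nt or more of exon). Log2 ratios of FPKM with a pseudocount of 1 understate the ratios of low genes. Folds stated as such are ratios of FPKM without the pseudocount. Calls needed 2-fold and 5 FPKM in the higher column. Depth was estimated from the lowest step of FPKM times exon length in genes of 1000 to 1500 nt, and 95% exact (Clopper-Pearson) intervals of ratios were computed from fragments so estimated. They cover counting error only. With 1 value per group no test was run.

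The members, the 57 gene lists and the rule for naming genes were chosen with earlier results of these data known, and 3 further lists were put together with the values in view. The rule named the RNAi targets, the UPRmt list, the 15 largest long protein-coding calls per direction, up to 6 called members of each list per direction, genes called in opposite directions on dve-1 RNAi and L4440, the 10 largest and 10 smallest on dve-1 RNAi among genes called higher on L4440, and the 10 genes most like eol-1. The genes arl-13, tba-5, dyf-2, cdr-4, cul-6, cyp-33C8, daf-19, drh-1, ftn-2, hmgs-1, klp-11, pals-22, pals-25, skr-3, skr-4, skr-5, smf-3, stl-1 and zip-1 lay outside it and were named after their values were seen. Alternatives were other pseudocounts, filters, scalings and minimum levels. The calling procedure was tested on simulated data. Python 3.11.15, numpy 2.4.6, pandas 2.3.3 and scipy 1.17.1 were used.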

Additional observations from a re-analysis of the deposited data

Results flagged for a closer look

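The genes that stood apart here were called in 1 direction with atp-2 RNAi on dve-1 RNAi and in the other on L4440. Of all kept genes 14 did so, and 5 of them were protein-coding with 300 nt or more of exon. For each, the log2 ratio on L4440 was subtracted from that on dve-1 RNAi. Both groups of libraries moved in opposite ways, but each is 1 pooled value and the difference was not tested.

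D1086.9 had the largest difference, -5.89, from log2 ratios of -2.2 on dve-1 RNAi and 3.69 on L4440. F48C1.9, a gene with 324 nt of exon, differed by -3.35 and was at 109 and 20.6 FPKM on dve-1 RNAi and 3.46 and 7.95 on L4440. him-8, which encodes a zinc finger protein for pairing of the X chromosomes in meiosis, differed by -3.22 and was at 81 and 16.8 FPKM on dve-1 RNAi and 10.9 and 23.1 on L4440. pals-6 differed by -3.07. In these 4 genes the highest value of the dve-1 RNAi and L4440 groups was that of dve-1 RNAi alone. The calls that chose the genes use that value, so this follows in part from the choice. C49H3.12 went the other way with a difference of 3.84, at 12.2 and 39.8 FPKM on dve-1 RNAi and 28.3 and 5.31 on L4440. There its lowest value was that of L4440 with atp-2 RNAi.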

How the results depend on the processing

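The counts of genes called on dve-1 RNAi (133 higher, 208 lower) moved by more than 1.5 times under 4 of the settings tried. With a pseudocount of 5 the lower genes numbered 129, with a mean FPKM of 5 or more 127, and with 10 FPKM required in the higher column 131. Restricted to long protein-coding genes, the higher genes numbered 82. Under every setting tried the lower genes outnumbered the higher ones. The centred median of the pals family (-0.84) was -1.46 with a pseudocount of 0.1, -0.34 with a pseudocount of 5 and -1.09 with the higher mean filter, and negative throughout. That of the UPRmt list stayed between 0.32 and 0.39, and its difference from L4440 between -0.43 and -0.32. Under median-of-ratios scaling the median of all kept genes was -0.02. Of the named genes, 38 lost their call with a pseudocount of 5, 5 with median-of-ratios scaling and 2 with upper-quartile scaling, 4 gained one with a pseudocount of 0.1, and none turned direction. The count without sperm genes and core histones was chosen after seeing the data.

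No paired analysis was possible because the deposited columns hold 1 value per group and no replicate values, and for the same reason leaving out each replicate was not run. Without a spread between replicates, the repeatability of any call is unknown. Overlapping genes, close gene copies and transcripts under 300 nt are the least certain values.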
